A study of Mus musculus with 6 samples.

Results

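The transcripts described here encode the cytokine route from leukaemia inhibitory factor (LIF) and interleukin 11 to the transcription factor STAT3 in mouse uterus. The 10 genes were chosen by name, not by their values, though earlier results of these data were known. They are the ligands Lif, Il11 and Il6, the receptors Lifr, Il6st, Il11ra1, Il6ra and Osmr, the effector Stat3 and its inhibitor Socs3. They were measured by 23 probe sets that carry exactly 1 of these symbols in the platform annotation, out of 45037 on the array, and 9 of the 10 genes had at least 1. For Il11ra1, the alpha receptor of interleukin 11, no probe set with its symbol alone was listed, and it was not analysed here. The 9 measured genes stand beside 18193 genes with a symbol in all.

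RNA of whole uterus came from 3 control and 3 Ihh-ablated samples, each on 1 array. Controls were Ihhf/f, with floxed Indian hedgehog (Ihh) alleles and no recombinase named in their genotype. Ihh-ablated samples were Ihhd/d, which is PRcre/+ Ihhf/f: the same floxed alleles with Cre expressed from the progesterone receptor locus, so deletion is limited to cells that have used that locus. Uteri of both groups came from day -1 of the artificial decidual response, a model in which hormones and a later uterine stimulus make the stroma differentiate as in early pregnancy. Strain and age were not given in the sources used here. Nor was it said whether each sample was 1 mouse, so the spread behind every p-value is that of the arrays and could be technical. One label field names a SmoM2 mouse in both groups, whereas titles, genotypes and design text name Ihh, as followed here.

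LIF and interleukin 11 are secreted cytokines of the interleukin 6 family, and both signal through the shared receptor subunit gp130, the product of Il6st. LIF binds the LIF receptor, interleukin 11 and interleukin 6 bind alpha receptors of their own, and oncostatin M binds the receptor encoded by Osmr; Janus kinases on these receptors phosphorylate STAT3, which switches on Socs3, and SOCS3 in turn shuts the receptor down. In the mouse, LIF made by the uterine glands is needed for the blastocyst to implant, and interleukin 11 acting on the stroma is needed for the decidua to form.

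No member of the pathway passed the test of Ihh-ablated against control arrays. Of the 8 tested genes, each represented by its brightest probe set, 0 reached an adjusted p under 0.05 (limma, Benjamini-Hochberg over 33777 probe sets), against 2.81% of all 15530 genes tested (1.28% higher and 1.53% lower in Ihh-ablated arrays). Il6 was left out of the test as too dim. An unadjusted p under 0.05 was reached by 4 of the 8 genes (Lif, Lifr, Il11 and Il6ra), where 24.2% of all genes reached it (9.99% higher, 14.2% lower). The groups did not overlap in 3 of the 8 (Lifr, Il11 and Il6ra), against 32.3% of all genes (13.3% higher, 19% lower). Lifr was the higher gene and the others were lower. The median log2 difference (Ihh-ablated minus control) was -0.14 over the 8 genes and -0.04 over all genes tested. Counted over probe sets, 0 of 22 were called, against 2.14% of all probe sets (1.03% higher, 1.11% lower). An unadjusted p under 0.05 was found for 8 of 22, 4 higher and 4 lower, against 22.9% of all (9.87% higher, 13% lower). Groups that did not overlap were found for 7 of 22, 4 higher and 3 lower, against 31% of all (13.1% higher, 17.9% lower). These shares rest on few genes, and several probe sets share a gene.

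The arrays measured the labelled tissue, and some carried marker transcripts of other tissues. Smooth muscle, stroma and epithelium markers were bright on every array (Acta2, for example, at 13692 to 15231). Skeletal muscle markers, a list added with earlier results known, summed to 12994 in control replicate 3, against 4466 and 4952 in the other controls and 1737 to 2235 on Ihh-ablated arrays. Outside control replicate 3, Acta1 made up most of each sum. It read 4164, 3559 and 5482 on control arrays and 1162 to 1593 on Ihh-ablated arrays (log2 -1.73, limma adjusted p = 0.00208). Pancreas markers summed to 51601 in Ihh-ablated replicate 2 and to 781.0 to 1988 on the other arrays. The lower quartile of intensity was 79.8 on control replicate 2 and 66.6 to 72.1 on the other arrays. The Hedgehog targets Gli1 (log2 -2.53, adjusted p = 0.000492) and Ptch1 (-1.65, adjusted p = 0.00146) fell, by limma, while the Ihh probe set itself read -0.43 (adjusted p = 0.164). In whole tissue, fewer cells of a type and less RNA per cell cannot be told apart.

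**Figure D1:**
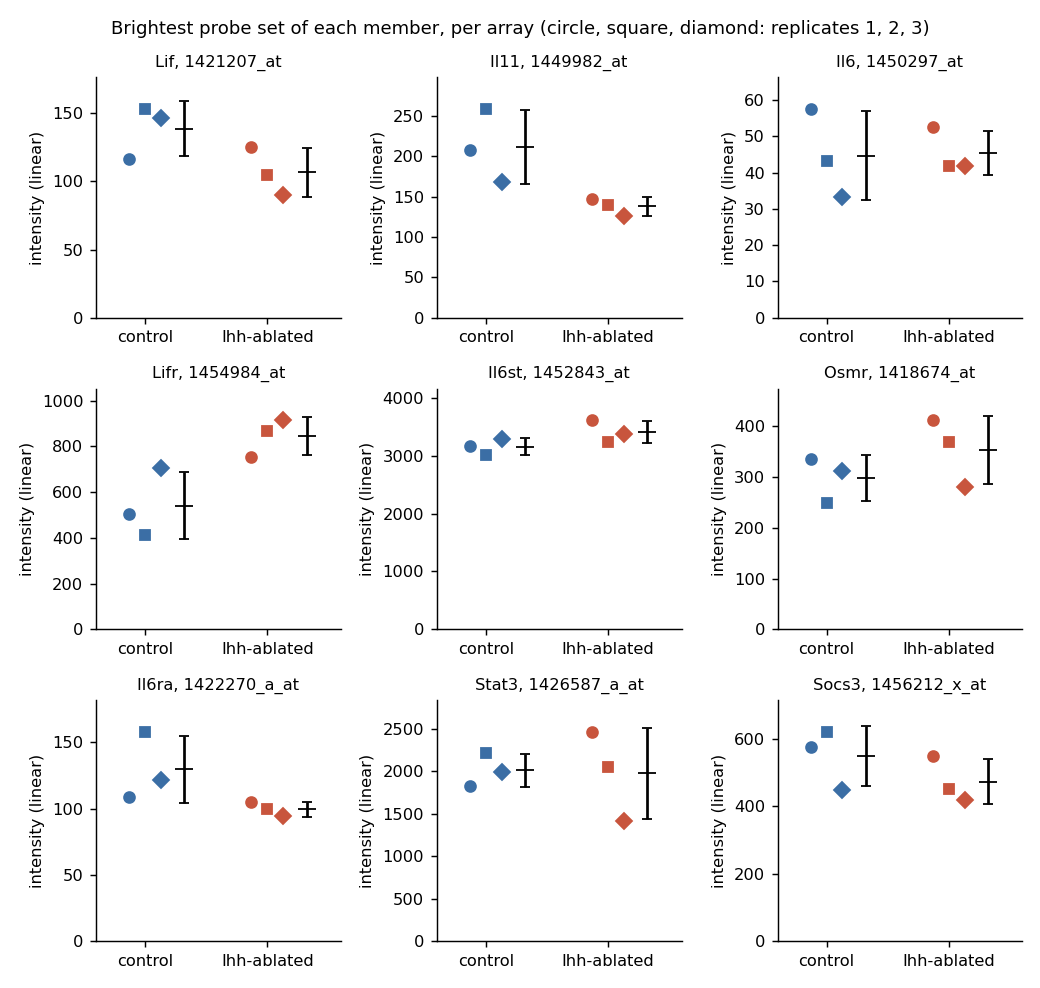
Linear intensity of the brightest probe set of each of the 9 measured members on each array, with replicates 1, 2 and 3 as circle, square and diamond and the mean with its SD (n = 3) as bars. The groups are apart for Il11, Lifr and Il6ra and overlap for Lif, Il6, Il6st, Osmr, Stat3 and Socs3.

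Of the ligands, Il11 and Lif read lower in Ihh-ablated uteri without passing the test, while Il6 was too dim to test. All 3 tested ligand probe sets were below 0, where 43.4% of all tested probe sets were above 0. Il11, which encodes interleukin 11, had 1 probe set (1449982_at), with intensities of 207.7, 259.3 and 168.4 on control arrays and 147.8, 140.2 and 125.8 on Ihh-ablated arrays. Each control array lay above each Ihh-ablated array, and control replicate 2 was the highest. The means were 211.8 ± 45.6 and 137.9 ± 11.2 (SD, n = 3 each). From the means of the log2 values, as for every fold given here, Il11 was 1.52-fold lower (log2 -0.60, SE 0.16, 95% interval -0.97 to -0.23, limma adjusted p = 0.0968). The difference passed without control replicate 3, the array with skeletal muscle transcripts (log2 -0.75, adjusted p = 0.0168), and without both control replicate 3 and Ihh-ablated replicate 2, an alternative chosen after seeing the data (-0.77, adjusted p = 0.0441). Leaving out control replicate 3 also raised calls over all genes, from 437 to 1890. Every pass given here without that array stands beside this rise. The Il11 difference was -0.44 (limma adjusted p = 0.147) without control replicate 2 and -0.54 (0.108) after quantile normalization. Without the other arrays in turn the adjusted p lay between 0.191 and 0.315.

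Lif had 2 probe sets, both dim. Probe set 1450160_at read 95.03, 109.9 and 89.3 on control arrays and 69.5, 68.8 and 76.9 on Ihh-ablated arrays, so the groups did not overlap. This was 1.36-fold lower (means 98.1 ± 10.7 and 71.7 ± 4.5, n = 3 each; log2 -0.45, SE 0.13, limma adjusted p = 0.108). The brighter 1421207_at read 115.9, 153.3 and 146.6 on control arrays and 125.2, 104.4 and 90.0 on Ihh-ablated arrays, with Ihh-ablated replicate 1 above control replicate 1. Its log2 difference was -0.38 (SE 0.16, adjusted p = 0.206). Both Lif probe sets kept a negative difference in all 15 alternatives that gave them a value, with an adjusted p of at least 0.0549. After quantile normalization the differences were -0.34 (1450160_at) and -0.29 (1421207_at). Control replicate 2, the array with the highest lower quartile of intensity, was the highest for both probe sets. The Lif probe sets lay at the 31.8 and 47.9 percentiles of all probe sets by mean intensity, and with no detection calls in the file neither was shown to lie above background. Markers of the uterine gland, the known source of LIF, summed to 1809 to 1942 on control arrays and 3016 to 4625 on Ihh-ablated arrays, where the group means of Lif were lower. The part of the glands in the Lif values was not tested. The gland sum of 4625 was that of Ihh-ablated replicate 2, the array with pancreas transcripts, and Spink1 of that list, also made by the pancreas, read 1981 there and 256.3 to 1005 on the others.

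Il6, which encodes interleukin 6, stayed near the bottom of the array (8.9 percentile). It read 57.6, 43.2 and 33.2 on control arrays and 52.5, 41.9 and 41.9 on Ihh-ablated arrays. The means were 44.7 ± 12.3 and 45.4 ± 6.12 (n = 3 each), the groups overlapped, and the difference was not tested at this signal.

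**Figure D2:**
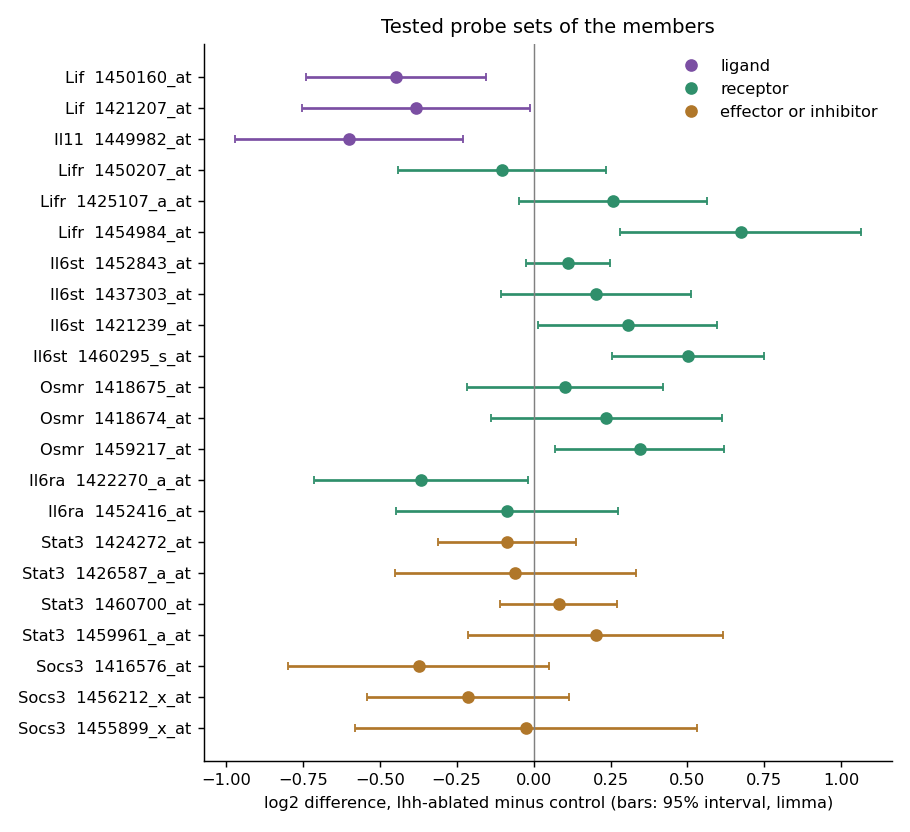
Log2 difference (Ihh-ablated minus control) of the 22 tested probe sets with 95% intervals from limma, coloured by role. The 3 ligand probe sets lie at -0.60 to -0.38, the 12 receptor probe sets at -0.37 to 0.67, and the 7 of Stat3 and Socs3 at -0.37 to 0.20; no probe set passed at an adjusted p under 0.05.

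No receptor probe set passed. The differences were above 0 for 9 of 12 tested probe sets of 4 genes, where 43.4% of all tested probe sets were above 0, and their median was 0.22. After quantile normalization or with median-centred arrays 10 of 12 were above 0. The median over all tested probe sets moved up as well, from -0.0405 to -0.003 and 0.0507 in turn. Il6st and Osmr alone hold 7 of the 12, so these counts rest on few genes. Of the other gp130 family receptors and receptor sheddases below, 1 of 5 genes was above 0 by its brightest probe set, the sheddase Adam10. Lifr, the LIF receptor, had its brightest probe set (1454984_at) at 504.9, 414.4 and 703.5 on control arrays and 754.1, 865.3 and 914.5 on Ihh-ablated arrays. The groups did not overlap, although control replicate 3 came close to Ihh-ablated replicate 1. The means, 540.9 ± 148 and 844.6 ± 82.2 (n = 3 each), stand beside a fold of 1.59 from the log2 means (log2 0.67, SE 0.17, 95% interval 0.28 to 1.06, limma adjusted p = 0.0847). Without control replicate 3 the difference was 0.88 and passed (adjusted p = 0.00552), as it did without control replicate 3 and Ihh-ablated replicate 2 together (0.86, adjusted p = 0.00958). Leaving out any other 1 array gave 0.50 to 0.75 with an adjusted p of at least 0.155. The other Lifr probe sets did not repeat its size: 1425107_a_at read 0.26 (adjusted p = 0.282; 0.16 to 0.32 with 1 array left out) with groups that did not overlap, and 1450207_at read -0.10 (adjusted p = 0.687), a sign that turned to 0.03 without control replicate 2. Both are much dimmer, at means of 77.2 to 128.6.

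Some markers of other cells were higher on the arrays where Lifr was, though not in the same order throughout. Epithelium markers, 8 genes, summed to 8774 to 11970 on control arrays and 12561 to 14160 on Ihh-ablated arrays, and control replicate 3 was the highest control for both. Of these markers only Ltf was called (log2 0.98, limma adjusted p = 0.0086), at 819.4 to 1194 on control arrays and 1836 to 2122 on Ihh-ablated arrays. The groups were also apart for Krt18 and Krt7, and overlapped for Krt8, Krt19, Epcam, Cdh1 and Cldn4. Adipocyte markers, of which 6 of 8 had a probe set, summed to 1945, 5121 and 9198 on control arrays and 7060, 11324 and 18828 on Ihh-ablated arrays, with Ihh-ablated replicate 3 the highest for both. Adipoq, the adipocyte hormone adiponectin, read 266.2, 906.5 and 1649 on control arrays and 1288, 2240 and 3946 on Ihh-ablated arrays, and no marker was at 0. The orders differed in places: both sums were lowest in control replicate 1, where Lifr was lowest in control replicate 2. The epithelium sum was higher in Ihh-ablated replicate 1 than in replicate 2, the reverse of Lifr, and the adipocyte sum of Ihh-ablated replicate 1 lay below that of control replicate 3. The part of these cells in the Lifr difference was not tested. The 3 tested genes whose profile over the 6 arrays lay closest to Lifr, by root mean square difference of centred log2 values, were Scn7a (0.041), Dsp, the desmosome protein desmoplakin (0.047), and Cfi, complement factor I (0.049).

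**Figure D3:**
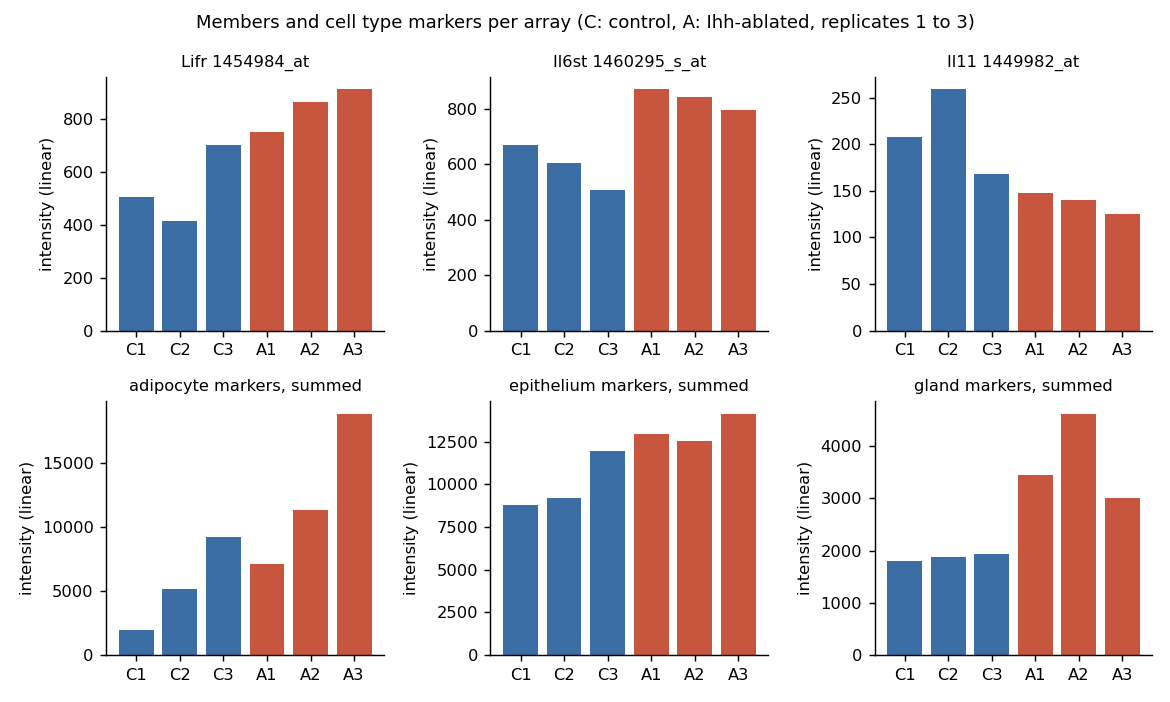
Linear intensity per array of Lifr, Il6st and Il11 probe sets (upper row) and summed intensity of adipocyte, epithelium and gland markers (lower row), with control arrays in blue and Ihh-ablated arrays in red. Each gene is shown by its probe set of lowest p (limma), which for Il6st (1460295_s_at) is not the brightest. Lifr and the epithelium sum are lowest in control replicates 1 and 2, and the adipocyte sum runs from 1945 in control replicate 1 to 18828 in Ihh-ablated replicate 3.

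Il6st, which encodes gp130, the subunit through which all these ligands signal, read higher on all 4 of its probe sets by unequal amounts. Probe set 1460295_s_at came closest to the threshold of all member probe sets. It read 668.8, 606.6 and 507.9 on control arrays and 871.3, 842.5 and 797.1 on Ihh-ablated arrays, without overlap (means 594.4 ± 81.2 and 837.0 ± 37.4, n = 3 each). The difference of 1.42-fold (log2 0.50, SE 0.11, 95% interval 0.26 to 0.75) had a limma adjusted p of 0.0536. It passed with robust eBayes (0.0416) and without control replicate 3 (0.39, adjusted p = 0.0333), but not without both control replicate 3 and Ihh-ablated replicate 2 (0.39, adjusted p = 0.0901). The brightest probe set, 1452843_at, read 3173, 3003 and 3287 on control arrays and 3613, 3240 and 3376 on Ihh-ablated arrays. Its groups overlapped, and its log2 difference of 0.11 (95% interval -0.02 to 0.25, adjusted p = 0.293) was far smaller, running from 0.07 to 0.15 with 1 array left out. The other 2 read 0.20 (1437303_at, adjusted p = 0.384) and 0.31 (1421239_at, adjusted p = 0.202), and with 1 array left out they ran from 0.04 to 0.35 and from 0.19 to 0.40.

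Osmr, the oncostatin M receptor, also read higher on all 3 probe sets, at 0.24, 0.10 and 0.34 from the brightest to the dimmest, with adjusted p values of 0.401, 0.673 and 0.153. With 1 array left out these ran from 0.11 to 0.40, from 0.03 to 0.23 and from 0.29 to 0.39. Its brightest, 1418674_at, read 335.1, 248.4 and 311.6 on control arrays and 411.9, 368.4 and 279.6 on Ihh-ablated arrays. The groups overlapped, and Ihh-ablated replicate 3 lay below 2 of the 3 controls. Il6ra, the interleukin 6 receptor, was the exception among the receptors. Probe set 1422270_a_at read 108.9, 158.1 and 121.9 on control arrays and 104.9, 99.3 and 94.0 on Ihh-ablated arrays, without overlap (log2 -0.37, SE 0.15, adjusted p = 0.201). Without control replicate 2, whose value was the highest, the difference was -0.21. Probe set 1452416_at read -0.09 (adjusted p = 0.755), with a sign that turned positive after quantile normalization and with median-centred arrays.

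Stat3, the transcription factor at the end of the route, differed little. Its brightest probe set, 1426587_a_at, read 1826, 2216 and 1993 on control arrays and 2467, 2048 and 1410 on Ihh-ablated arrays, so that Ihh-ablated arrays held both the highest and the lowest value. The log2 difference was -0.06 (95% interval -0.45 to 0.33, limma adjusted p = 0.846), and it turned to 0.03 with median-centred arrays. The most precise Stat3 value came from 1460700_at, with means of 1453 ± 17.7 and 1543 ± 167 (n = 3 each) and a log2 difference of 0.08 (95% interval -0.11 to 0.27, adjusted p = 0.570). The remaining Stat3 probe sets read 0.20 and -0.09, the latter 0.0048 with median-centred arrays. These arrays measure Stat3 transcript and say nothing of phosphorylated STAT3 protein.

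Socs3, the feedback inhibitor that STAT3 induces, had 3 probe sets, 2 of them of the _x_at kind, whose probes may also match other transcripts. Its promoter is shown because STAT3 acts there, and that of Lif because Lif heads the route. Both are the 250 bases before the RefSeq start, GRCm38.p6, 5′ to 3′ on the gene's strand, chr11:117969367-117969616 (minus strand) for Socs3 and chr11:4257318-4257567 (plus strand) for Lif, with capitals marking a match to the STAT motif TTCNNNGAA:
Socs3: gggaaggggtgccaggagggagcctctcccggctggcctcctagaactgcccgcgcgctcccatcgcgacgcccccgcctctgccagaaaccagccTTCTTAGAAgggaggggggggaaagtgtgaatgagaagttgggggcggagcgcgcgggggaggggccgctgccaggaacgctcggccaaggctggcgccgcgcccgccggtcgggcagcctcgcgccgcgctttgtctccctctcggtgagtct
Lif: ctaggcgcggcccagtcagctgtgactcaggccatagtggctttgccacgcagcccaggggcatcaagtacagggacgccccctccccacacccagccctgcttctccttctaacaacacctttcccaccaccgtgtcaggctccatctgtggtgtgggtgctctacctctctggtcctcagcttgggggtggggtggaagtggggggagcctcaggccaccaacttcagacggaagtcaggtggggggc
The motif, which reads the same on both strands, was found once in the Socs3 window, as TTCTTAGAA with its first base 154 bases before the start. It was found in 1 of 13 such windows of the 10 genes and in 7.02% of all 32851 RefSeq promoter windows. The GLI motif GACCACCCA, searched on both strands, was found in 0 of the 13 and in 0.225% of all.

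The 3 Socs3 probe sets differed among themselves. Probe set 1416576_at read 401.8, 458.3 and 325.5 on control arrays and 400.9, 273.6 and 251.4 on Ihh-ablated arrays. The groups overlapped, since Ihh-ablated replicate 1 lay above control replicate 3. The log2 difference was -0.37 (SE 0.19, limma adjusted p = 0.265), and without Ihh-ablated replicate 1 it was -0.58 (adjusted p = 0.180). Probe set 1456212_x_at, the brightest, read -0.21 (adjusted p = 0.390; -0.35 to -0.12 with 1 array left out). Probe set 1455899_x_at read -0.02 (95% interval -0.58 to 0.53, adjusted p = 0.959), with 723.5 in Ihh-ablated replicate 1 against 366.4 and 400.4 in the others of that group, and its sign turned to 0.07 with median-centred arrays. On all 3 probe sets Ihh-ablated replicate 1 was the highest of its group. The same held for the brightest probe set of every other measured member except Lifr.

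**Figure D4:**
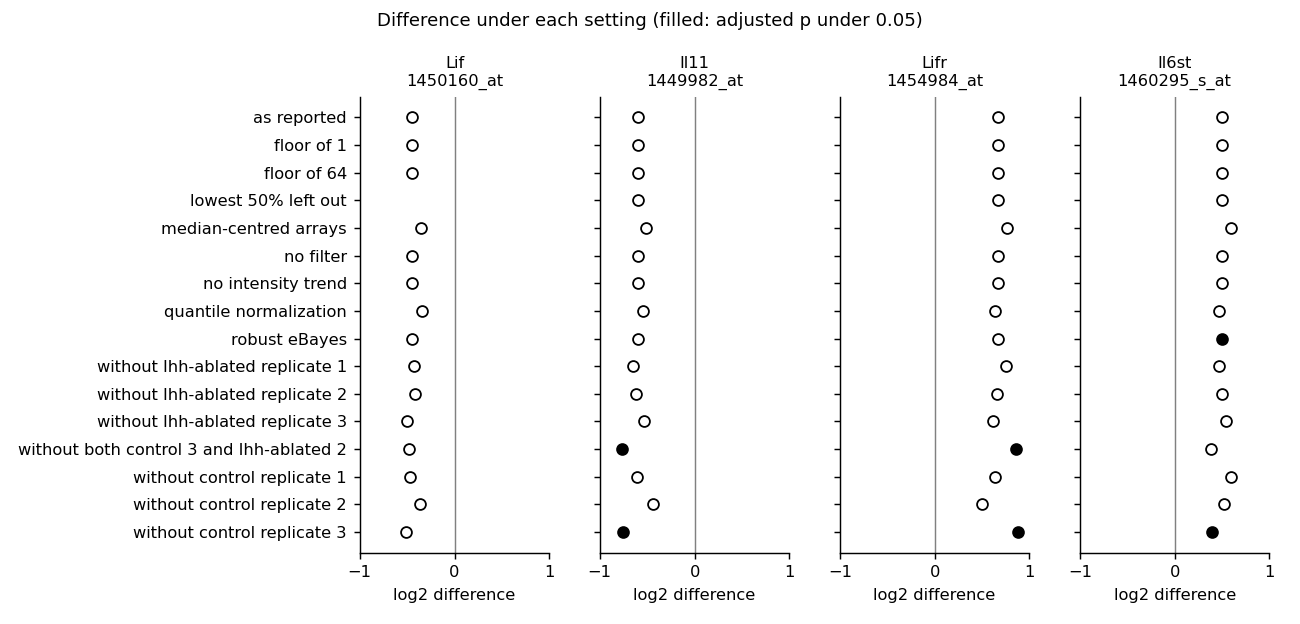
Log2 difference of 4 member probe sets as reported and under each alternative with no replicate block that gave a value. Each is its gene's tested probe set of lowest p (limma), which for Lif (1450160_at) and Il6st (1460295_s_at) is not the brightest. Filled circles have an adjusted p under 0.05. The Lif and Il11 probe sets shown stay below 0 and the Lifr and Il6st ones above 0 throughout. Probe sets not shown include the brightest of Il6st (1452843_at, 0.11) and 1450207_at of Lifr (-0.10). Filled circles appear for Il11, Lifr and Il6st without control replicate 3. They appear for Il11 and Lifr without that array and Ihh-ablated replicate 2, and for Il6st with robust eBayes.

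The wider pathway was read from lists of other genes. Of 24 STAT3-responsive genes, 2 rose and 3 fell (limma), where 2.81% of all genes tested were called. An unadjusted p under 0.05 was reached by 12 of the 24, against 24.2% of all genes. The other 19 did not pass the adjusted test, and the list's median log2 difference was -0.14 against -0.04 for all genes tested. Birc5 (survivin, an inhibitor of apoptosis that also serves in mitosis) read 528.1, 434.2 and 361.7 on control arrays and 134.7, 139.0 and 156.1 on Ihh-ablated arrays, far apart. It fell by 1.61 on the log2 scale (SE 0.15, limma adjusted p = 0.00194), and kept the call in all 17 alternatives. Steap4, a metalloreductase, fell from 826.4 ± 243 to 338.7 ± 31.2 (n = 3 each; log2 -1.25, limma adjusted p = 0.0126), a call lost without control replicate 2 (0.0522) or Ihh-ablated replicate 1 (0.0593), and with the mean of its probe sets (log2 -0.88, 0.0568). Its dimmer probe set read -0.50 (adjusted p = 0.195). Ccnd1 (cyclin D1) fell by 0.40 on its brightest probe set (limma adjusted p = 0.0389) and by 0.55 and 1.02 on the others (0.00985 and 0.0206). The first of these calls was lost without any 1 array but control replicate 3 (0.0571 to 0.138), with median-centred arrays (-0.30, 0.150), without the filter on dim probe sets (0.0580) and without an intensity trend (0.111). Birc5 and Ccnd1 are also cell division genes.

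The 2 that rose were Lcn2 and Fos. Lcn2, a secreted lipocalin, read 242.0, 215.6 and 220.3 on control arrays and 571.0, 796.0 and 366.9 on Ihh-ablated arrays (log2 1.29, SE 0.23, limma adjusted p = 0.0275). All Ihh-ablated arrays lay above the controls but were widely spread, and the call was lost without control replicate 1 (0.104), control replicate 2 (0.0948) or Ihh-ablated replicate 1 (0.101), and without an intensity trend (0.0608). Fos, an immediate early transcription factor, rose by 1.08 (adjusted p = 0.0382), a call lost without any 1 array but control replicate 3 (0.0600 to 0.125), after quantile normalization (0.0567), without the filter (0.0641) and without a trend (0.0794). Acute-phase Hp (haptoglobin) read 250.3, 266.7 and 549.8 on control arrays and 634.6, 750.1 and 686.4 on Ihh-ablated arrays (log2 1.05, limma adjusted p = 0.0735). It passed without control replicate 3, whose value was the highest control (1.41, adjusted p = 0.00107), and without that array and Ihh-ablated replicate 2 (1.35, 0.00086). Timp1, a metalloprotease inhibitor, read -0.75 (adjusted p = 0.0501). It passed without control replicate 3 (-0.92, 0.00674), without that array and Ihh-ablated replicate 2 (-0.97, 0.0102), with robust eBayes (0.0373), with the mean of probe sets (0.0456), with a floor of 64 (0.0483) and with the lowest 50% left out (0.0494). Ier3 (0.44), Cebpb (0.38), Gadd45g (0.46), Lrg1 (0.38) and Il4ra (0.34) complete the 12 with an unadjusted p under 0.05, all above 0, with limma adjusted p values of 0.0873 to 0.214. These and Hp and Timp1 were singled out after their values were seen. Ier3 passed with median-centred arrays (0.54, limma adjusted p = 0.0461) and without control replicate 2 (0.58, 0.0342). The epithelium and gland sums given above were higher in all Ihh-ablated arrays, though of the epithelium markers only Ltf was called. Of 5 tested gland markers 3 were called higher, against 1.28% of all genes. These were Cxcl15 (limma adjusted p = 0.0137), Sox9 (0.0168) and Spink1 (0.0383). The part of either sum in the values of the STAT3-responsive genes was not tested.

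**Figure D5:**
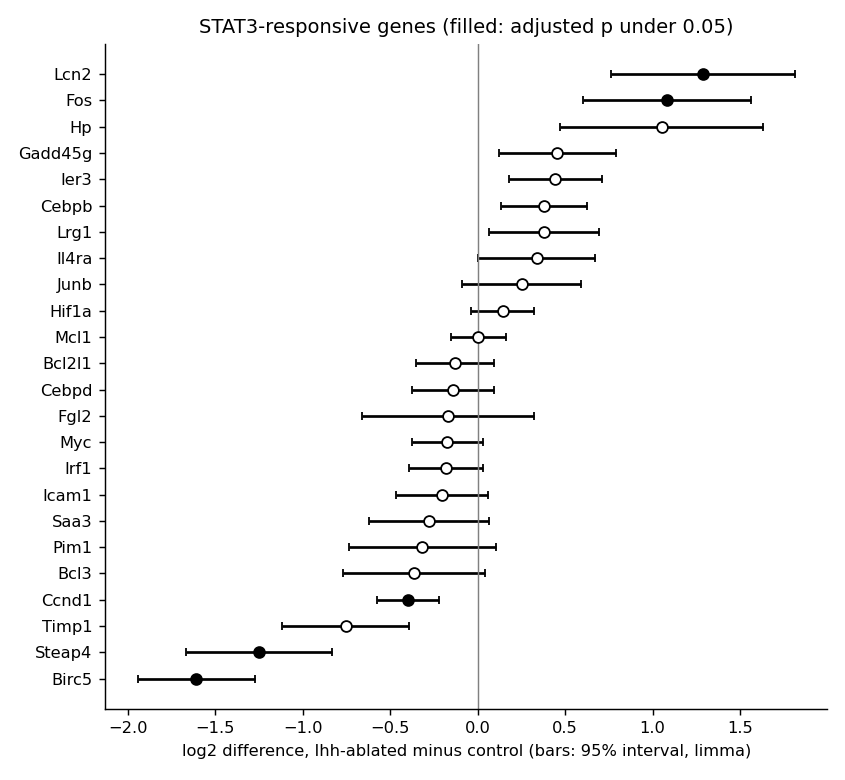
Log2 difference (Ihh-ablated minus control) of the 24 STAT3-responsive genes, each by its brightest probe set, with 95% intervals from limma; filled circles have an adjusted p under 0.05. Lcn2 (1.29) and Fos (1.08) rose, and Birc5 (-1.61), Steap4 (-1.25) and Ccnd1 (-0.40) fell.

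Among the inhibitors of STAT signalling 0 of 11 genes passed (limma; 2 at an unadjusted p under 0.05, against 2.81% and 24.2% of all genes), with a median of 0.10. The closest was Socs2, a feedback inhibitor of growth hormone signalling, at 902.0, 1020 and 922.8 on control arrays and 1379, 1291 and 1148 on Ihh-ablated arrays. The groups did not overlap, and the difference (log2 0.42, SE 0.09) had an adjusted p of 0.0501. It passed without control replicate 3 (0.40, adjusted p = 0.0405), with median-centred arrays (0.51, 0.0408), with robust eBayes (0.0419), with a floor of 64 (0.0482) and with the lowest 50% left out (0.0494). The dimmer tested Socs2 probe sets read 0.34, -0.0008, 0.49 and 0.59 (limma adjusted p = 0.159, 0.998, 0.153 and 0.0751). Ptpn1 (0.31), Socs6 (0.25) and Cish (0.17), the next by p, had adjusted p values of 0.111, 0.269 and 0.362, and Ptpn1, a tyrosine phosphatase, also passed without control replicate 3 (0.37, adjusted p = 0.0483). The dimmer Ptpn1 probe set read 0.05 (limma adjusted p = 0.771).

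Among the kinases, other STATs and adaptors 0 of 9 tested genes passed (limma; 2 at an unadjusted p under 0.05, against 2.81% and 24.2% of all genes), with a median of 0.05. Stat5a, a STAT that cytokines such as prolactin activate, read 330.7, 533.2 and 606.6 on control arrays and 747.9, 663.6 and 670.2 on Ihh-ablated arrays (log2 0.55, adjusted p = 0.156). Its dimmer probe set 1450259_a_at, at 128.4, 195.8 and 210.3 against 347.5, 306.4 and 320.4, rose by 0.90 (SE 0.18, limma adjusted p = 0.0393). Without control replicate 3 the brighter probe set passed (0.72, adjusted p = 0.0383), as did the kinase Jak2 (0.37, adjusted p = 0.0395; 0.46 and 0.0117 without Ihh-ablated replicate 2 as well), which read 0.23 (adjusted p = 0.292) on all arrays. Ptpn11, the phosphatase SHP2, read 0.16 (0.173), Stat5b 0.25 (0.254) and Jak1, the main kinase of gp130, -0.05 (0.778). Dimmer probe sets of Jak1 read -0.23 (1433803_at, limma adjusted p = 0.141), with groups that did not overlap, and 0.18 (1433804_at, 0.465).

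Of the other gp130 family ligands 0 of 4 passed and of the other receptors and receptor sheddases 0 of 5 (limma; 0 and 0 at an unadjusted p under 0.05, against 2.81% and 24.2% of all genes), with medians of -0.15 and -0.08. Ctf1 (cardiotrophin 1) read -0.19, Clcf1 -0.21, Ebi3 0.09 and Osm (oncostatin M) -0.10, with adjusted p values of 0.320 to 0.668. The dimmer Clcf1 probe sets went the other way, 1437270_a_at at 0.69 (limma adjusted p = 0.125) and 1437271_at at 0.25 (0.297), both with groups that did not overlap. Adam10, a sheddase, read 0.10, and the receptors Cntfr, Il31ra and Il27ra read -0.11, -0.12 and -0.08, with adjusted p values of 0.420 to 0.780. Dimmer probe sets of Adam10 read 0.54 (1450105_at, limma adjusted p = 0.103), 0.39 (1450104_at, 0.106) and -0.18 (1460083_at, 0.668), and one of Cntfr read -0.45 (1431663_a_at, 0.155). The groups did not overlap for 1450105_at, 1450104_at and 1431663_a_at.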

How the data were processed

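Mouse uterus RNA was amplified to biotin-labelled cRNA for Affymetrix arrays, per the labels' protocols. The authors deposited 1 processed intensity value for each probe set and array, on a linear scale. How they summarised, background-corrected and normalized it is not given in the sources used here; dim values are the most exposed to them. Groups and replicate numbers come from the sample titles. All 23 member probe sets matched the mouse gene table (GRCm38.p6) by Entrez identifier, with the same symbol.

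Control probe sets (64) were left out, intensities under 16 were set to 16, and log2 was taken. Array medians differed by 0.23 log2, under the limit of 0.3 for renormalization. Probe sets in the lowest 25% by mean were not tested, leaving 33777. Ihh-ablated and control arrays were compared in limma 3.58.1 under R 4.3.3 (lmFit, eBayes with intensity trend, Benjamini-Hochberg over all tested probe sets). A gene is represented by its brightest tested probe set. The number of arrays limits the precision. Every member probe set is described, and of each other list the called genes or up to 4 of lowest p, with Hp, Timp1, Ier3, Cebpb, Gadd45g, Lrg1, Il4ra and Jak1 named beyond that rule after their values were seen. Members, lists and tests were chosen with earlier results of these data known. The fit was tested on simulated data. Alternatives changed the normalization, floor, filter, variance model, pairing, probe set and arrays. Deviations of same-numbered arrays correlated at -0.13, -0.01 and 0.25, and numbers were not treated as pairs. These correlations cannot show whether the samples were paired. Plots used matplotlib 3.10.9 under Python 3.11.15.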

Additional observations from a re-analysis of the deposited data

How the results depend on the processing

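Over 17 alternatives, member genes called stayed at 0 except for 1 with the replicate block, 2 without both control replicate 3 and Ihh-ablated replicate 2, and 0 to 2 when 1 array was left out; member probe sets called numbered 2 with the block, 1 with robust eBayes, 2 without both arrays and 0 to 3 with 1 array left out. The block called Lifr 1454984_at (limma adjusted p = 0.0198) and Il6st 1460295_s_at (0.0177). With them it called Timp1 (0.00861), Hp (0.0185), Socs2 (0.0271) and Ier3 (0.0439). Of the 6 arrays, 2 correlated best with their own number. With so few arrays this cannot show whether the numbers pair the samples. The 5 other lists gave 5 calls as reported, 3 without the filter, 2 without an intensity trend, 9 with the block, 8 without both arrays and 1 to 11 with 1 array left out. Over all genes 437 were called, 266 with median-centred arrays, 226 without a trend, 922 with the block, 1105 without both arrays and 111 to 1890 with 1 array left out. Over all probe sets 724 were called, 374 without a trend, 1562 with the block, 1915 without both arrays and 156 to 3569 with 1 array left out. The largest count of genes and of probe sets came without control replicate 3. Signs turned with median-centred arrays for Il6ra 1452416_at (0.0050, and 0.019 after quantile normalization), Socs3 1455899_x_at (0.0667), Stat3 1424272_at (0.0048) and Stat3 1426587_a_at (0.0315). With 1 array left out these ran from -0.18 to 0.0470 for that Il6ra probe set, -0.33 to 0.16 for Socs3, -0.24 to 0.16 for Stat3 1426587_a_at, -0.0275 to 0.35 for Stat3 1459961_a_at and -0.20 to 0.0295 for Lifr 1450207_at. The cause was not tested beyond the arrays named. No detection calls bound the dim ligand probe sets.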
